A study of Oryza sativa with 4 samples.

Results

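The genes that make and remove the hormone abscisic acid (ABA) were followed in rice leaves. They were 8 genes picked by Rice Annotation Project identifier, 5 assigned to synthesis and 3 to catabolism, out of 37858 genes listed. All 8 were in the table, had counts and passed edgeR's filterByExpr filter on low counts, so none was left out.

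The plants were of the cultivar Nipponbare, and no treatment separated them other than the temperature at which their seeds had ripened. Plants of control seeds (CS) came from seeds matured at 25 °C, and plants of heat-developed seeds (HDS) from seeds matured at 30 °C. Both then grew under the same natural conditions without a heat treatment, and fully developed leaves were sampled at 55 days after sowing, with 2 plants per treatment and 1 library per plant. The comparison asks whether the temperature of the seed left a difference in the leaf transcripts of the next plant.

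ABA is the hormone through which plants respond to drought and salt, close their stomata and keep seeds dormant. It is made from carotenoids. Zeaxanthin epoxidase (OsZEP) makes the epoxycarotenoids in the plastid, and 9-cis-epoxycarotenoid dioxygenases (NCED) cleave them, which is the committed step and usually the one that limits the rate. The ABA 8′-hydroxylases (OsABA8ox1 to OsABA8ox3, cytochrome P450 enzymes of the CYP707A family) start its breakdown to phaseic acid. Leaves therefore hold an amount of ABA that depends on both steps, and neither ABA itself nor the enzymes' activity was measured here.

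The libraries summed to between 15444235 and 17298384 expected counts. Levels are given as counts-per-million scaled by edgeR's TMM factors (CPM), which are not divided by transcript length, so they compare libraries for 1 gene and do not rank the genes. Across genes, the CS libraries were less alike (Pearson's r = 0.959 of log2 CPM) than the HDS libraries (r = 0.979). CS replicate 1 was the farthest from both HDS libraries (r = 0.945 and 0.950). CS replicate 2 was as close to HDS replicate 1 (r = 0.959) as to CS replicate 1, and closer to HDS replicate 2 (r = 0.965). The CS libraries thus did not stand apart from the HDS libraries as a group. The values of the 8 genes are therefore also given without single libraries where that changes them, while single genes of the other lists were not refitted in this way. A list of 5 leaf genes, of the Rubisco small subunit and chlorophyll a/b-binding proteins, was high in every library. Summed levels were 25700 CPM in CS replicate 1 and 15600 CPM in CS replicate 2, against 14000 to 16300 CPM in HDS. By the study's criteria given below 4 of the 5 were lower in HDS, against 3.7% of all genes tested. In the adjusted quasi-likelihood test, also given below, 0 of the 5 passed. The expected counts of these 5 genes were not whole, so their reads may be shared with other genes. A list of 4 seed storage and starch genes summed to 11.3 to 15.4 CPM in CS and 8.16 to 12.2 CPM in HDS. Most of this came from the glutelin gene Os10g0400200, at 14.4 and 9.97 CPM in CS and 7.66 and 10.8 CPM in HDS. Os01g0762500 and Os06g0133000 had counts in every library, at no more than 1.07 CPM. Another glutelin gene, Os02g0249800, was at 0 in all 4 libraries. Of 8 circadian clock genes, 5 were lower in HDS by the study's criteria and 0 were higher, against 3.7% and 4.18% of all genes tested. The summed level of the 8 was 3350 to 3440 CPM in CS and 2450 to 2650 CPM in HDS. In whole leaves, fewer cells of a type and less RNA per cell cannot be told apart.

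Of the 8 ABA genes, 2 were higher in HDS leaves and 0 were lower. Both of these were dioxygenase genes with few counts, OsNCED4 at 8.82 times and OsNCED5 at 2.53 times the CS mean. OsZEP, OsNCED1, OsNCED3 and the 3 hydroxylase genes did not pass the test, and their libraries overlapped between treatments. The count of 2 used the criteria of the study's methods, in which exactTest of edgeR must give P under 0.05 without adjustment and the log2 fold change must reach 0.37 or -0.37. In the fits made here 7.88% of the 29698 genes tested met these criteria, with 4.18% higher and 3.7% lower in HDS. The study itself reported a larger number of genes, and the reason for the gap was not tested. With Benjamini-Hochberg adjustment over all genes, exactTest kept 1 of the 8, OsNCED4, against 2.38% of all genes. In the quasi-likelihood test of edgeR 0 of the 8 passed after adjustment, against 0.699% of 22184 genes, although 2 of the 8 had an unadjusted P under 0.05 in that test, against 9.23% of genes. The median log2 fold change was 0.09 over the 8 genes, or 0.64 without CS replicate 2, and 0.01 over all genes tested with the 4 libraries. The genes were chosen with earlier results of these data known, and 8 genes are few, so the counts describe these genes only.

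**Figure D1:**
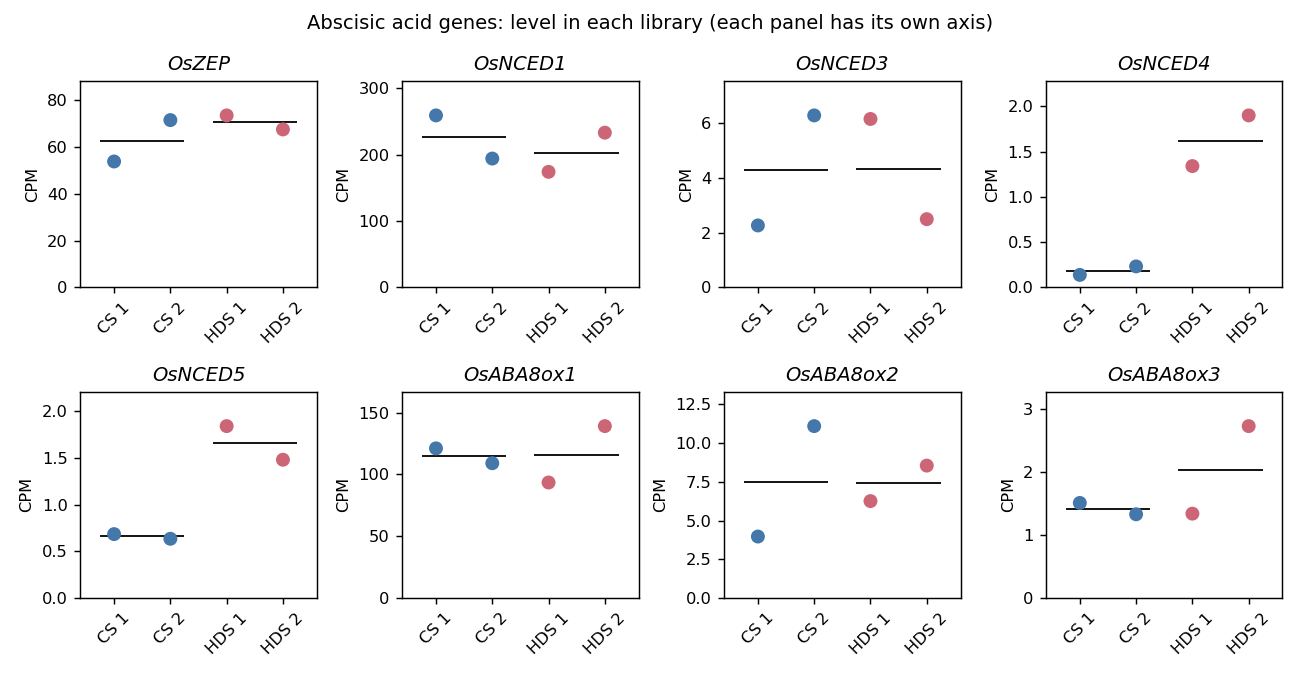
Level of each of the 8 ABA genes in the 4 libraries, in CPM (linear axis from 0, a separate scale in each panel); points are libraries and black lines the mean of 2 libraries. The HDS points lie above both CS points for OsNCED4 and OsNCED5, and the treatments overlap in the other 6 panels.

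OsZEP (Os04g0448900, chromosome 4) encodes the enzyme that turns zeaxanthin into violaxanthin, also used in the xanthophyll cycle of the chloroplast. It had 786 and 1241 counts in CS replicates 1 and 2 and 1316 and 1136 in HDS replicates 1 and 2. This is 62.7 ± 12.6 CPM (SD, n = 2) in CS and 70.5 ± 4.29 CPM (SD, n = 2) in HDS. CS replicate 1 was the low library, and the other 3 lay close together. Its log2 fold change of 0.17 (SE 0.21, P = 0.417 by edgeR's exact test) was -0.02 without CS replicate 1.

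OsNCED1 (Os02g0704000, chromosome 2) carries the name of a 9-cis-epoxycarotenoid dioxygenase, while other nomenclatures place it with the cleavage dioxygenases of the CCD4 type. It had 3791 and 3369.16 expected counts in CS and 3107 and 3927.31 in HDS, or 227 ± 46.1 CPM (SD, n = 2) and 203 ± 42.2 CPM (SD, n = 2). In each treatment the higher library was 1.34 times the lower, with 95% counting intervals of 1.27 to 1.40 in CS and 1.28 to 1.41 in HDS, so these plants differed beyond counting error within a treatment. The difference between treatments, a log2 fold change of -0.16 (SE 0.30, P = 0.508 by edgeR's exact test), was smaller than that spread. Leaving out 1 library at a time gave values between -0.39 and 0.06.

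OsNCED3 (Os03g0645900, chromosome 3) is the dioxygenase gene commonly studied in stressed rice plants. It had 33 and 109 counts in CS and 110 and 42 in HDS, which is 2.26 and 6.28 CPM against 6.15 and 2.49 CPM. Each treatment held 1 high and 1 low plant, and the treatment means were the same within 1.01 times. The higher plant was 2.78 times the lower in CS (95% counting interval 1.87 to 4.24) and 2.46 times in HDS (1.71 to 3.61). With a log2 fold change of 0.01, an SE of 0.95 (P = 0.987 by edgeR's exact test) and values between -0.78 and 0.91 when 1 library was left out, the direction for this gene was not set by 2 plants per treatment.

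OsNCED4 (Os07g0154100, chromosome 7) showed the clearest difference of the 8 genes. It had 2 and 4 counts in CS and 23.59 and 32 expected counts in HDS, which is 0.137 and 0.231 CPM against 1.34 and 1.90 CPM. Both CS libraries were near the limit of detection, since the 3 counts that a count of 0 would allow equal 0.173 to 0.205 CPM in these CS libraries. Both HDS libraries were clearly above that limit and did not overlap with CS, as was also true in either direction of 40.5% of the genes kept by filterByExpr and, with HDS above, of 21.2%. Summed over the libraries, 6 counts in CS stood against 56 in HDS, a ratio of 8.59 with a 95% interval of 3.71 to 24.4 (exact binomial). This interval covers counting error only and leaves out the spread between plants.

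The log2 fold change of OsNCED4 was 3.07 (SE 0.32), and edgeR's exact test gave P = 3.47e-05, or 0.00265 after Benjamini-Hochberg adjustment over all genes. That SE comes from log2 CPM with a prior count of 2, which draws genes with few counts together. It is not on the scale of the fitted 3.07 and should not be read against it. The adjusted P was 0.122 in the quasi-likelihood test of edgeR. Over the 12 alternatives the gene met the study's criteria in all 12, with log2 fold changes from 2.77 to 3.47, and its adjusted P, by the test of each alternative, ran from 0.000843 to 0.372 and was under 0.05 in 7. The adjusted P of the exact test was 0.0183 without CS replicate 2, 0.0641 without CS replicate 1, 0.105 without HDS replicate 1 and 0.372 without HDS replicate 2.

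OsNCED5 (Os12g0617400, chromosome 12), the other dioxygenase gene that was higher in HDS, had 10 and 11.16 expected counts in CS and 33 and 25 in HDS. This is 0.659 ± 0.0354 CPM (SD, n = 2) in CS and 1.66 ± 0.254 CPM (SD, n = 2) in HDS. Each HDS library was higher than each CS library, as in 21.2% of the genes kept by filterByExpr. The higher replicate was 1.08 times the lower in CS (95% counting interval 0.411 to 2.8) and 1.24 times in HDS (0.716 to 2.18). With so few counts these intervals include 1 but also leave room for a spread between plants. The summed counts were 21 in CS and 58 in HDS, a ratio of 2.54 (95% exact binomial interval 1.52 to 4.41). Its log2 fold change was 1.33 (SE 0.15, again from log2 CPM with a prior count of 2 and not on the fitted scale). In edgeR's exact test P was 0.0193 and the adjusted P 0.38, and the adjusted P was 0.426 in the quasi-likelihood test. The direction held in each set of 3 libraries, with log2 fold changes of 1.16 to 1.48, but P was then 0.0544 to 0.176 in the exact test, so none of these sets met the criteria. With DESeq2 P was 0.11.

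The counts of OsNCED4 were low against those of OsNCED5 in CS and nearer to or above them in HDS. The ratio of OsNCED4 to OsNCED5 counts within a library was 0.20 and 0.358 in CS and 0.715 and 1.28 in HDS. In log2 CPM with a prior count of 2, OsNCED4 differed between treatments by 1.33 more than OsNCED5 (SE 0.47), which is less than the gap between their fitted log2 fold changes of 3.07 and 1.33 because the prior count shrinks genes with few counts. An exact permutation test (two-sided) over the 4 libraries gave P = 0.333, the smallest that 2 against 2 libraries allow, so this test could not have passed 0.05. For OsNCED1 and OsABA8ox1, the genes on chromosome 2 assigned to synthesis and catabolism, the count ratio was 2.14 and 1.79 in CS and 1.86 and 1.67 in HDS. It overlapped between treatments, and the two-sided exact permutation P was 0.667.

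**Figure D2:**
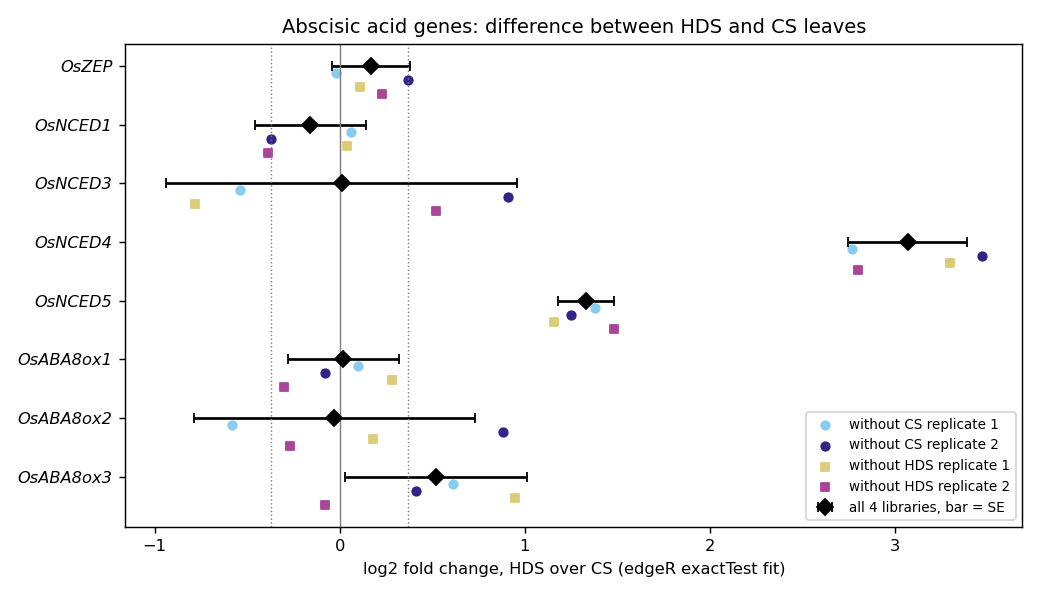
Log2 fold change of HDS over CS for each ABA gene (edgeR exactTest fit, x axis); black diamonds use all 4 libraries with bars of 1 SE, small symbols leave out 1 library each, and dotted lines mark -0.37 and 0.37. All values for OsNCED4 lie between 2.77 and 3.47 and for OsNCED5 between 1.16 and 1.48, while those of the other 6 genes fall on both sides of 0. The SE comes from log2 CPM with a prior count of 2 and not from the fit, which shortens the bars of genes with few counts.

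OsABA8ox1 (Os02g0703600, chromosome 2) encodes an ABA 8′-hydroxylase. It had 1773.85 and 1883.98 expected counts in CS and 1670.98 and 2345.94 in HDS, or 115 ± 9.04 CPM (SD, n = 2) and 116 ± 32.5 CPM (SD, n = 2). The HDS plants lay on both sides of the CS plants, with replicate 2 at 1.49 times replicate 1 (95% counting interval 1.40 to 1.59). Its log2 fold change was 0.02 (SE 0.30, P = 0.944 by edgeR's exact test) and, when 1 library was left out, -0.30 to 0.28.

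OsABA8ox2 (Os08g0472800, chromosome 8) had 58 and 192 counts in CS and 112 and 144 in HDS, which is 3.97 and 11.1 CPM against 6.26 and 8.55 CPM. Both HDS plants lay between the CS plants, which differed from each other by 2.79 times (95% counting interval 2.07 to 3.81). A log2 fold change of -0.03 (SE 0.76, P = 0.973 by edgeR's exact test) therefore rested on which CS plant was used. It was 0.88 (P = 0.026, exact test) without CS replicate 2, where the gene met the study's criteria, and -0.58 without CS replicate 1.

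OsABA8ox3 (Os09g0457100, chromosome 9) had 22 and 23 counts in CS and 24 and 46 in HDS. HDS replicate 2 was the only high library, at 2.73 CPM against 1.33 to 1.51 CPM in the others. The log2 fold change of 0.52 (SE 0.49, P = 0.365 by edgeR's exact test) was -0.08 without HDS replicate 2.

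**Figure D3:**
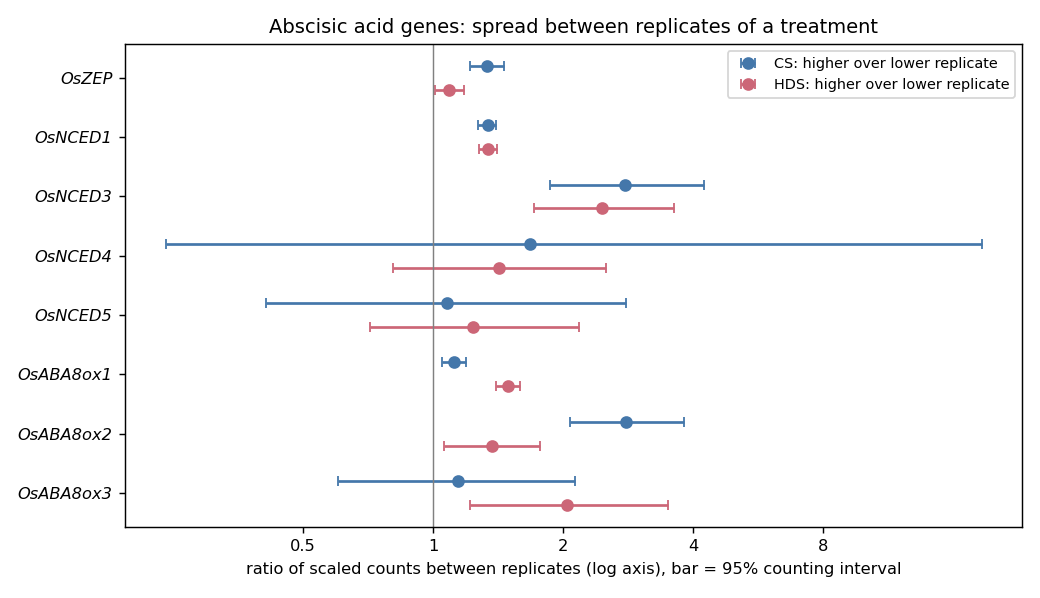
Ratio of the higher to the lower replicate of each treatment for the 8 ABA genes (log axis), with bars for the 95% counting interval (exact binomial) and a line at 1. The largest ratios are those of OsABA8ox2 (2.79) and OsNCED3 (2.78) in CS and OsNCED3 (2.46) in HDS, and the intervals of OsNCED4 and OsNCED5 include 1 in both treatments.

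In 4 of the 8 genes some expected counts were not whole, since RSEM splits reads that match more than 1 gene. Each of these 4 had a gene in the next row of the table whose decimals completed its own to whole numbers in all 4 libraries. For OsNCED4 this was Os07g0154201, with 1.41 expected counts in HDS replicate 1 and 0 elsewhere, and the ratio of HDS to CS means, from counts without rounding, was 8.76 for OsNCED4 alone and 8.97 for the pair. For OsNCED5 it was Os12g0617250, with 2.84 expected counts in CS replicate 2 and 0 elsewhere, and the ratio was 2.51 alone and 2.23 for the pair. For OsNCED1 it was Os02g0704131, with at most 5.84 expected counts in any library. For OsABA8ox1 it was Os02g0703700, with 542.15 and 764.02 expected counts in CS and 801.02 and 1073.06 in HDS, and the ratio was 1.01 alone and 1.10 for the pair. OsZEP, OsNCED3, OsABA8ox2 and OsABA8ox3 had whole counts in every library.

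The genes whose pattern over the 4 libraries was most like that of OsNCED4 were sought among the other 22183 genes kept by filterByExpr, by the root mean square difference in log2 CPM after centring each gene. The nearest were Os03g0397600 (difference 0.0815), Os11g0133001 (0.112) and Os12g0210500 (0.126), and 5 genes lay within 0.2. Os12g0210500 had 2 and 5 counts in CS and 26 and 41 in HDS, and the other genes named had 0 and 1 in CS and between 11 and 13 in HDS. For OsNCED1, the gene with the smallest P among those with a negative value, 4810 genes lay within 0.2, the nearest being Os03g0423200, Os02g0174100 and Os04g0686600. A profile of 4 libraries is short, and the likeness is a description only. The log2 CPM used for it carried a prior count of 2, which draws genes with few counts together. Fitted log2 fold changes were 4.18, 4.24 and 3.12 for the 3 genes nearest to OsNCED4, in the order given, against 3.07 for OsNCED4.

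The rest of the ABA pathway was read from 7 lists with 60 genes, of which 56 had counts. By the study's criteria HDS was higher for 7 of them and lower for 3, together 17.9% against 7.88% of all genes tested. The adjusted exact test kept 6 of them and DESeq2 with adjusted P kept 3, against 2.38% and 2.55% of all genes, and the adjusted quasi-likelihood test of edgeR kept 0, against 0.699%. In that test 10 of 48 had an unadjusted P under 0.05, against 9.23% of all genes. The count of 10 was 6 without HDS replicate 2, where 5% of all genes met the criteria, and 15 without CS replicate 2, where 18.6% did. Of the 10 genes, 5 were on the list of ABA-responsive genes. The lists were drawn up with earlier results of these data known, so the shares describe the listed genes only and do not measure an enrichment of the pathway.

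Among the carotenoid enzymes around OsZEP the calls were few. Of 13 genes 0 were higher and 2 were lower, both on the list as beta-carotene hydroxylases, and the median log2 fold change of the list was -0.11. Os04g0578400 had 84 and 81 counts in CS and 58 and 42 in HDS (log2 fold change -0.86, P = 0.027, adjusted P = 0.465 by edgeR's exact test). Os10g0533500 had 14 and 5 counts in CS and 2 and 0 in HDS, too few for a firm value. None of the 3 phytoene synthase genes, which open the carotenoid pathway, met the criteria, with log2 fold changes of -0.12 to 0.12. Among the 5 other genes of synthesis and carotenoid cleavage 0 met the criteria. A further member of the dioxygenase family, Os12g0435200, had 0 counts in all 4 libraries, which allows up to 3 counts in each. Os07g0281700, listed as an aldehyde oxidase of the last step, had 0 counts in CS and 1 and 3 in HDS and had the smallest P of its list (0.195, edgeR's exact test).

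In the signalling steps, ABA binds receptors of the PYL family, which then inhibit clade A protein phosphatases (PP2C) and so release the SnRK2 kinases (SAPK in rice). Of 7 receptor genes 1 was higher, Os03g0297600, with 301 and 327 counts in CS and 459 and 571 in HDS (log2 fold change 0.59, P = 0.0131, adjusted P = 0.295 by edgeR's exact test). Of 9 phosphatase genes 1 was higher, OsPP2C51 (Os05g0572700), with 5 and 6 counts in CS and 28 and 37 in HDS (log2 fold change 2.42, adjusted P = 0.0123 by edgeR's exact test and 0.145 by its quasi-likelihood test). The other 8 phosphatase genes did not meet the criteria, and the list's median was -0.20. None of the 10 SAPK kinase genes met the criteria, with log2 fold changes between -0.24 and 0.18, and the smallest P was 0.185 (OsSAPK9, Os12g0586100, edgeR's exact test). Of 7 transcription factor genes 1 was higher, Os01g0867300 of the ABF type, with 588 and 642 counts in CS and 1080 and 975 in HDS (log2 fold change 0.61, adjusted P = 0.0365 by edgeR's exact test and 0.151 by its quasi-likelihood test).

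Of 9 ABA-responsive genes 4 were higher and 1 was lower, and the list's median log2 fold change was 1.29 with a range of -0.91 to 4.79. The median was the value of Os11g0453900, with 0 and 1 counts in CS and 2 and 1 in HDS. The lowest value was that of Os03g0322900, with 0 and 2 counts in CS and 0 and 1 in HDS. Both had too few counts for a firm value, so the median does not measure a shift of the list. OsSalT (Os01g0348900), a salt- and ABA-inducible lectin gene, had 8 and 0 counts in CS and 123 and 131 in HDS (adjusted P = 3.38e-10 by edgeR's exact test and 0.0882 by its quasi-likelihood test). OsLEA3-1 (Os05g0542500), of a late embryogenesis abundant protein, had 9 and 0 counts in CS and 82 and 54 in HDS. The dehydrin gene Os11g0454300 had 2 and 0 counts in CS and 21 and 15 in HDS. In these 3 genes all CS counts were 9 or fewer and CS replicate 2 had 0. OsNAC6 (Os01g0884300), a stress-related transcription factor, had 4287.63 and 4910.31 expected counts in CS and 7332.19 and 6707.3 in HDS (log2 fold change 0.49, P = 0.00533, adjusted P = 0.158 by edgeR's exact test). Os03g0815100, a further NAC factor of the list, was the lower gene, with 3066 and 3633 counts in CS and 2061 and 2376 in HDS (log2 fold change -0.71, adjusted P = 0.0108 by edgeR's exact test and 0.151 by its quasi-likelihood test).

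**Figure D4:**
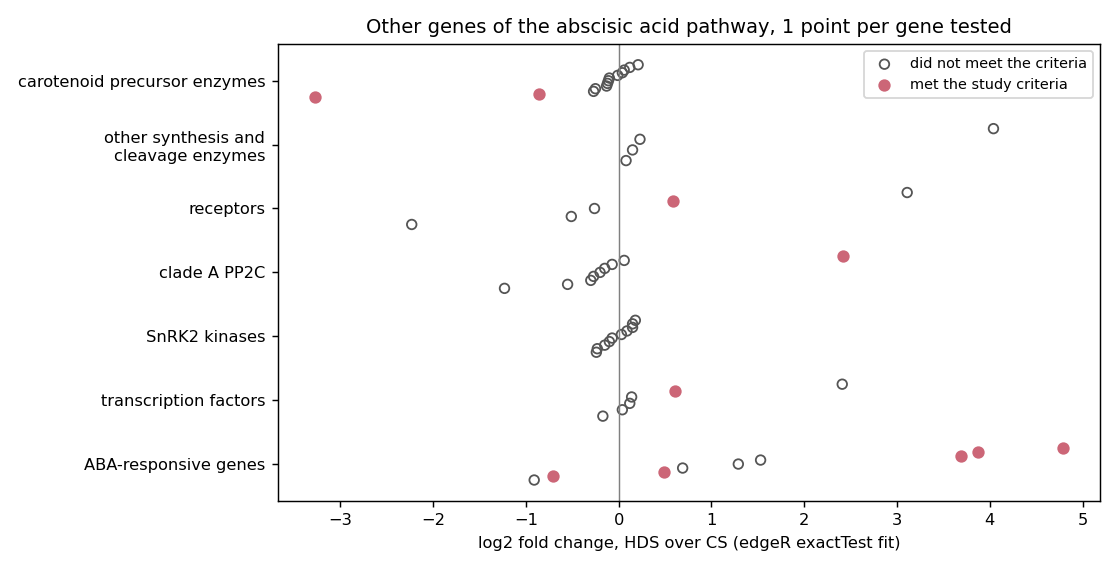
Log2 fold change of HDS over CS (edgeR exactTest fit, x axis) for the 56 tested genes of 7 other ABA pathway lists, 1 point per gene; filled points met the study's criteria and open points did not. The 10 SnRK2 kinase genes lie between -0.24 and 0.18, while the ABA-responsive genes run from -0.91 to 4.79. The value of -0.91 is that of a gene with at most 2 counts in any library.

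Genes outside the ABA pathway also differed between CS and HDS in these libraries. OsSGR (Os09g0532000), a chlorophyll degradation gene that marks senescing leaves, had 27 and 41 counts in CS and 476 and 199 in HDS (log2 fold change 3.18, adjusted P = 0.047 in the quasi-likelihood test of edgeR), while the other gene of that list, OsNYC1 (Os01g0227100), did not pass the test, with a log2 fold change of -0.20. The clock genes OsPRR95 (Os09g0532400) and OsPRR1 (Os02g0618200) were lower in HDS, with log2 fold changes of -1.41 and -1.05 and adjusted P of 0.0404 and 0.0364 by the same edgeR test. The part of leaf age, of the clock or of the time of sampling in the dioxygenase values was not tested.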

How the data were processed

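Leaf RNA of 2 CS and 2 HDS plants was sequenced. The authors estimated expected counts per gene with RSEM on IRGSP-1.0 and deposited them without normalization, and the processing notes also name Bowtie2, Trimmomatic and FastQC 0.11.7. The methods and the labels name different library kits. A read that fits several genes is divided among them, which makes counts of related genes uncertain. After rounding of the deposited expected counts to integers, the tests used edgeR 4.0.16 in R 4.3.3 (exactTest with TMM and estimateDisp on 29698 genes with at least 1 count; glmQLFTest on 22184 genes kept by filterByExpr) and DESeq2 1.42.0, over the whole table. P-values were adjusted by Benjamini-Hochberg. The fits were tested on simulated data, with changes placed only in genes with more counts than OsNCED4 and OsNCED5. That test therefore does not cover calls at such low counts. Standard errors come from log2 CPM with a prior count of 2, which draws genes with few counts together. Counting intervals (95%) and the limit of 3 counts for a count of 0 cover counting error only.

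The table held 0 rows without a gene, and 0 columns were left unused. The 8 genes and all lists were chosen with earlier results of these data known. Genes were named by a written rule: all 8, then from each pathway list those that met the criteria or had the smallest P, and the 3 nearest profiles. The 3 phytoene synthase genes, Os12g0435200, Os11g0453900, Os03g0322900, OsNYC1 and the other marker genes were chosen for naming once their values were known. No table used here pairs the identifiers with names. The names of the 8 genes are those of the gene list, and those of other genes come from general knowledge. A name was printed for the latter only where RefSeq lists it on the same chromosome, as it does for 34 of 60 pathway names. RefSeq lists 5 of the 8 genes in this way, and the 3 not listed by name are OsNCED1, OsNCED4 and OsNCED5. For 1 pathway gene, Os03g0810800, the name was found on another chromosome, and the gene was kept in its list. Sequences and transcript lengths were not used here.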

Additional observations from a re-analysis of the deposited data

How the results depend on the processing

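OsNCED4 and OsNCED5 kept their direction under each alternative run. The genes that met the study's criteria changed when a library was left out, as given above for OsNCED5 and OsABA8ox2. With all 4 libraries their count was 2 of the 8, and 1, OsNCED4, with DESeq2, with adjusted P or with the replicate block. By adjusted quasi-likelihood P it was 0, then 1 with the exact test and 0 to 1 with each library left out. The median log2 fold change of the 8 genes was 0.08 to 0.64 with each library left out, the highest without CS replicate 2. Values near 0 changed sign: OsABA8ox2 was 0.02 with total counts and 0.12 with the replicate block, and OsABA8ox1 was -0.01 with the block. With each library left out, OsZEP lay between -0.02 and 0.37, OsNCED1 between -0.39 and 0.06, OsNCED3 between -0.78 and 0.91, OsABA8ox1 between -0.30 and 0.28, OsABA8ox2 between -0.58 and 0.88 and OsABA8ox3 between -0.08 and 0.95. OsNCED5 had P = 0.052 with the block (quasi-likelihood test of edgeR, not the exact test). Deviations of same-numbered plants were not correlated across genes (0.00 over 22184 genes). With 2 plants per treatment this cannot exclude that plants were paired by number.

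Over all genes, 2340 met the study's criteria, 707 of them with adjusted P, and 1132 to 5430 with each library left out. The adjusted quasi-likelihood test called 155 genes, 532 with the replicate block, 419 among genes with at least 1 count, 566 with DESeq2, 724 with the exact test, and 64 to 2506 with each library left out. The count of 10 pathway genes lay between 6 and 15, an alternative added after the data had been seen. The causes were not tested. With 2 plants per treatment and 6 to 58 summed counts per treatment for OsNCED4 and OsNCED5, 1 plant can decide a call.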
